A study of Mus musculus with 12 samples.

Results

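A small group of genes had their lowest level in the mouse heart on the day after an infarct and stood higher both without infarction and a week later. The genes were picked by their values. A gene was a member when its mean on day 1 AMI was at most 50% of the mean in sham hearts and at most 50% of the mean on day 7 AMI, when each day 1 heart lay below all hearts of both other groups, and when the sham or the day 7 mean reached at least 1 CPM (TMM-scaled read counts per 1000000). Symbols starting with Col, Kcn, Scn, Cacn, Ackr, Adamts, H2-, Wnt or Sfrp were dropped. This rule gave 34 members of 15306 genes tested, from 53801 genes in the count table. The RNA came from whole hearts of adult male C57BL/6N mice, with 4 hearts per group. Sham mice were the operated controls, and both AMI groups had the left anterior descending coronary artery tied, with hearts taken 1 or 7 days later. No transgene, deletion or drug was part of any group. The day on which sham hearts were taken was not given in the sources used here, and all libraries were whole-transcriptome RNA of bulk tissue, in which fewer cells of a type and less RNA per cell cannot be told apart.

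Tying a coronary artery deprives the muscle downstream of blood. Cardiomyocytes there die within hours, neutrophils and then monocytes enter, and within about a week granulation tissue with dividing myofibroblasts and new vessels replaces the dead muscle. The members do not form 1 pathway. They include an endosomal glycoprotein, cell-surface adhesion molecules, a bone morphogenetic protein, parts of cilia, a linker histone, and 13 non-coding RNA genes or pseudogenes.

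The 12 libraries held 23204551 to 32166517 counts each, and 3 counts corresponded to 0.0895 to 0.156 CPM. The TMM factors, which correct for RNA composition, ran from 0.781 to 0.917 in sham, from 1.01 to 1.06 on day 1 and from 1.10 to 1.17 on day 7. Mitochondrial transcripts took 17.9% to 27.4% of the counts in sham, 12.1% to 15.9% on day 1 and 13.2% to 19.2% on day 7. The tissue label was borne out by a list of 11 cardiomyocyte genes, which summed to 98509 to 115195 CPM in sham, 61424 to 75173 CPM on day 1 and 51869 to 60216 CPM on day 7.

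Of the genes tested, 138 (0.902%) had a day 1 mean at most 50% of both other means. With the demand that the day 1 hearts stand apart 52 were left (0.340%), and with the level minimum 36 (0.235%). The 2 genes dropped for their symbols were *Col4a4*, a basement membrane collagen (11.4, 5.65 and 23.1 CPM in sham, day 1 and day 7), and *Ackr4*, an atypical chemokine receptor (3.88, 1.70 and 13.7 CPM). The mirror image was commoner, since 127 genes rose at least 2-fold on day 1 above both other groups under otherwise like conditions. Just inside the limit were *Lgi3*, *Bmp7* and *Mdga1*, whose larger ratio of day 1 to another group was 49.6%, 49.7% and 49.9%. Just outside were *Cst6* (50.1%), *Fbln1* (50.7%) and *Ccser1* (50.8%), so the edge of the set has no gap in it.

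Because the dip chose the members, its size is a description and carries no test. The day 1 mean ran from 0% to 49.9% of the sham mean, with a median of 37.2%, and from 0% to 49.7% of the day 7 mean, with a median of 35.7%. Summed over the members, sham hearts gave 118 to 145 CPM, day 1 hearts 38.3 to 58.1 CPM and day 7 hearts 121 to 146 CPM. The members were weakly expressed. Their mean over the 12 hearts ran from 0.652 to 13.9 CPM with a median of 1.54 CPM, against a median of 15.7 CPM over all genes tested. A member thus rested on a median of 40.5 counts per sham library, 19 per day 1 library and 59 per day 7 library. The coefficient of variation among the 4 hearts of a group had a median of 24.5% in sham, 30.3% on day 1 and 20.3% on day 7.

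**Figure D1:**
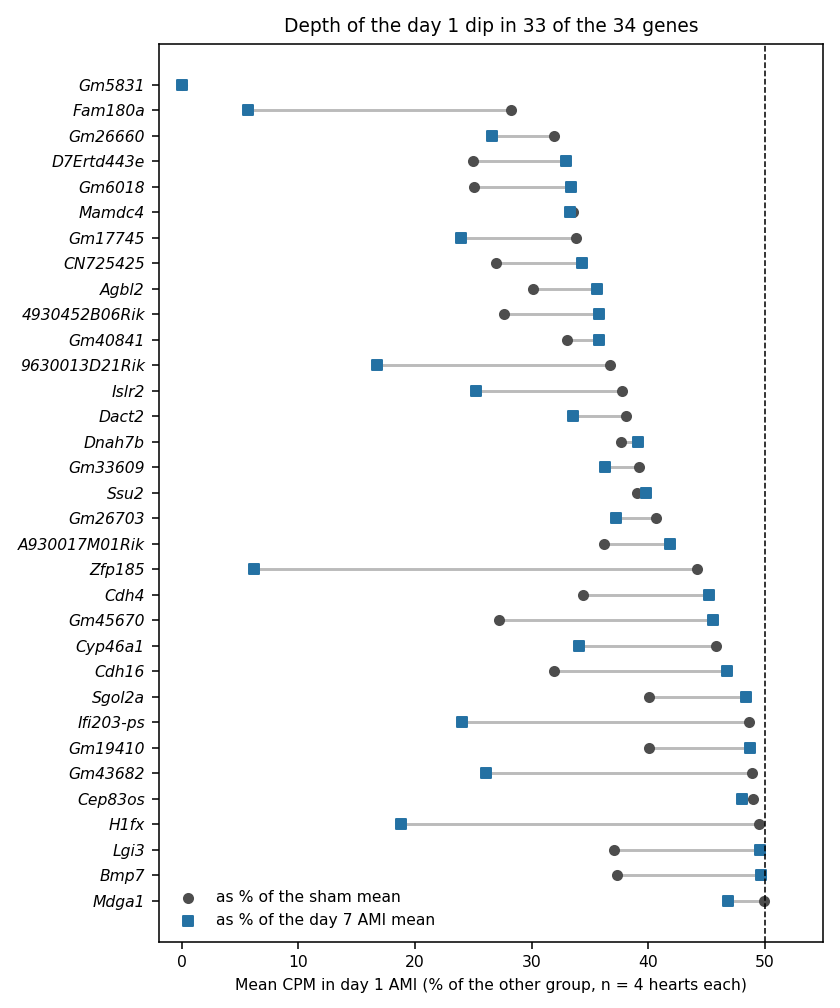
Depth of the dip for 33 of the 34 members, with the day 1 mean CPM as a percentage of the sham mean (circles) and of the day 7 mean (squares) and a dashed line at 50%. Every member shown lies at or below 50% by the rule, and they spread from *Gm5831*, at 0% of both, to *Mdga1*, at 49.9% of sham.

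By annotation, 21 members were protein coding (61.8%), 9 were long non-coding RNAs or other non-coding genes (26.5%) and 4 were pseudogenes (11.8%). Among all genes tested these classes made up 90.3%, 8.26% and 1.39%, and among the 5973 genes in the members' range of mean CPM they made up 85.5%, 12.2% and 2.14%. Put the other way, 0.152% of coding genes, 0.711% of non-coding genes and 1.88% of pseudogenes were members. Non-coding genes as a class also stood lower on day 1. Called differences here are those with a fold change of at least 2 and a false discovery rate (FDR) under 0.05 in edgeR's quasi-likelihood test. Of the 1265 non-coding genes 117 were called lower on day 1 than in sham (9.25%), against 325 of 13817 coding genes (2.35%) and 2.98% of all genes. Pseudogenes as a class did not stand lower, with a median log2 fold change of 0.16. Of the 213 pseudogenes 13 were called lower (6.10%) and 30 higher (14.1%, against 7.79% of all genes). Within the members' CPM range the counts called lower were 76 of 729 non-coding genes (10.4%) and 182 of 5108 coding genes (3.56%). The gap between non-coding and coding genes was thus also there inside this range, in which levels were not matched. These counts include the members, and the classes were not compared with a test. Pooled over the classes, the members had a median of 3750 exon bases against 4247 for all genes tested and a median GC content of 49.1% against 49.7%. Within classes the medians differed in opposite directions. Coding members had 3899 exon bases and 54.6% GC, against 4488 and 49.9% for all coding genes. Non-coding members had 3142 and 44.8% against 2434 and 47.7%, and pseudogenes 1931 and 45.8% against 1293 and 49.2%. None of these differences was tested. They lay on 16 chromosomes, with no more than 4 on any of them.

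**Figure D2:**
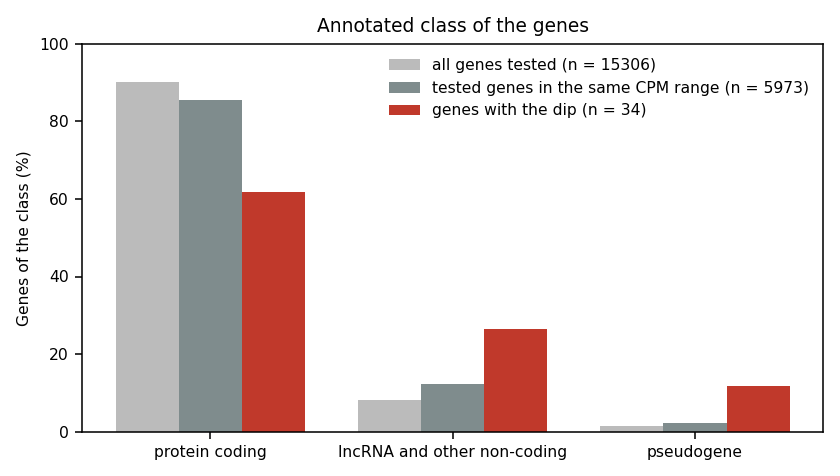
Share, in percent, of protein-coding genes, non-coding genes and pseudogenes among the 34 members, among all genes tested and among tested genes in the members' range of mean CPM. Coding genes made up 61.8% of members and 90.3% of genes tested.

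Among the best expressed coding members was *Mamdc4*, which encodes endotubin, a glycoprotein of apical endosomes best known from the suckling gut (chr2:25563115-25574845, minus strand, GRCm38). Its sham hearts gave 10.7, 9.94, 6.35 and 12.6 CPM, its day 1 hearts 4.51, 3.34, 4.12 and 1.29 CPM and its day 7 hearts 6.78, 11.3, 11.8 and 9.97 CPM. The group means were 9.89 ± 2.61, 3.32 ± 1.43 and 9.98 ± 2.27 CPM (SD, n = 4), so the day 7 mean came to 101% of the sham mean.

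*Mdga1*, a lipid-anchored surface protein that binds neuroligins and limits synapse formation in the brain, had the highest counts of the coding members (chr17:29827949-29970087, minus strand). It stood at 14.6, 12.1, 19.7 and 18.5 CPM in sham, 7.65, 5.49, 9.39 and 9.90 CPM on day 1 and 18.1, 16.5, 16.8 and 17.8 CPM on day 7. The 4 day 7 hearts were unusually close to each other (17.3 ± 0.758 CPM, SD, n = 4), while sham hearts spread more widely (16.2 ± 3.51 CPM). *Sgol2a* encodes a shugoshin, a guardian of centromeric cohesin in cell division (chr1:57995971-58025899, plus strand). Sham hearts held 13.3, 9.24, 17.6 and 13.3 CPM, day 1 hearts 5.24, 3.73, 5.66 and 6.78 CPM and day 7 hearts 9.03, 12.4, 11.7 and 11.1 CPM. A list of 20 other genes of mitosis can be set beside it. Of these, 7 were called higher on day 1 than in sham (7.79% of all genes were) and 19 were called higher on day 7 than on day 1 (8.55% of all genes were), and their sum rose to 299 to 462 CPM on day 7 from 31.4 to 72.2 CPM in sham. Per length, as TPM (transcripts per 1000000, which divides by transcript length), *Mamdc4* was the highest of these 3 genes, with means of 19.95, 6.45 and 29.1 TPM in sham, day 1 and day 7, followed by *Mdga1* with 8.16, 5.12 and 10.1 TPM.

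**Figure D3:**
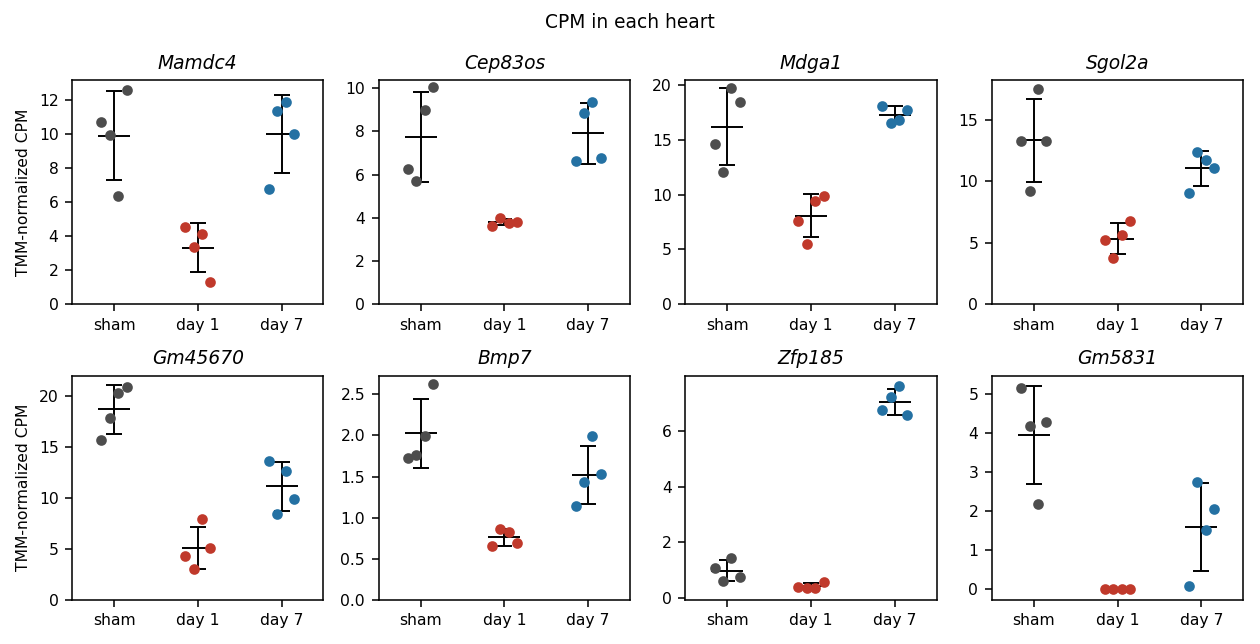
CPM of 8 members in each of the 12 hearts (points), with the group mean (long line) and SD (whiskers), on a linear axis per panel. Every day 1 heart lies below all sham and day 7 hearts in each panel, as the rule demands, whereas *Zfp185* alone of these 8 has its day 7 hearts (6.56 to 7.60 CPM) clear above sham (0.616 to 1.46 CPM).

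Genes for signals and cell contacts formed another group of coding members. *Bmp7*, a ligand of the transforming growth factor beta superfamily that opposes fibrosis in the kidney (chr2:172868012-172940321, minus strand), gave 1.72, 1.77, 1.99 and 2.63 CPM in sham, 0.650, 0.865, 0.818 and 0.694 CPM on day 1 and 1.14, 1.43, 1.99 and 1.53 CPM on day 7. Its day 1 hearts were tightly bunched at 0.757 ± 0.101 CPM (SD, n = 4), and its day 7 mean came to 75.2% of sham. *Cdh4*, or R-cadherin, a calcium-dependent adhesion molecule, went from 2.63 to 3.81 CPM in sham to 0.895 to 1.41 CPM on day 1 and 1.82 to 3.43 CPM on day 7. *Cdh16*, a cadherin first known from kidney epithelium, was weakly expressed, at 0.679 to 1.64, 0.153 to 0.556 and 0.680 to 1.22 CPM. The secreted leucine-rich repeat protein gene *Lgi3* ran from 2.92 to 4.49 CPM in sham, from 0.879 to 1.80 CPM on day 1 and from 2.10 to 3.28 CPM on day 7. *Dact2*, a Dishevelled-binding modulator of Wnt and Nodal signalling, had 1.07 to 2.03, 0.459 to 0.914 and 1.20 to 2.35 CPM. In all 5 of these genes the sham and day 7 hearts overlapped, and the test of day 7 against sham called none of them.

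Genes of cilia and microtubules were also members. *Agbl2* encodes a carboxypeptidase that trims the tails of tubulin, and it read 1.88, 0.986, 3.59 and 3.16 CPM in sham, 0.918, 0.567, 0.589 and 0.820 CPM on day 1 and 1.23, 2.97, 1.92 and 2.01 CPM on day 7. Its sham hearts were so uneven that the lowest of them lay only slightly above the highest day 1 heart. *Dnah7b*, an inner-arm dynein heavy chain of motile cilia, read 1.23 to 2.63, 0.599 to 0.883 and 1.02 to 2.88 CPM. Among the other coding members, *Cyp46a1*, the cholesterol hydroxylase by which the brain sheds cholesterol, went from 0.574 to 1.10 CPM in sham to 0.344 to 0.410 CPM on day 1 and 1.04 to 1.18 CPM on day 7. *Ssu2* had 2.06 to 3.54, 0.985 to 1.47 and 2.65 to 3.67 CPM, and *4930452B06Rik* had 2.77 to 3.03, 0.507 to 1.08 and 1.90 to 2.66 CPM. *Gm19410*, *CN725425* and *D7Ertd443e*, for which no role is given here, had sham means no higher than 1.39 CPM and day 1 means at 25.0% to 40.0% of them.

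The non-coding member with the most counts was *Gm45670*, annotated as an antisense RNA (chr7:133747624-133753038, plus strand). It gave 15.6, 17.8, 20.3 and 20.9 CPM in sham, 4.32, 2.98, 7.95 and 5.01 CPM on day 1 and 13.6, 8.42, 12.6 and 9.86 CPM on day 7. In CPM all day 7 hearts lay above day 1 and below sham, with means of 18.7 ± 2.41, 5.07 ± 2.10 and 11.1 ± 2.41 CPM (SD, n = 4). Being short, at 711 exon bases, it led per length, with 46.3, 15.6 and 40.0 TPM. In TPM its day 7 hearts (29.7 to 49.7) overlapped sham (35.5 to 52.4). *Cep83os*, a non-coding RNA that shares a bidirectional promoter with the centrosomal gene *Cep83*, read 6.26, 5.71, 8.97 and 10.04 CPM in sham, 3.63, 3.97, 3.76 and 3.82 CPM on day 1 and 6.63, 8.85, 9.37 and 6.77 CPM on day 7. Its day 1 hearts agreed to within 0.139 CPM (SD, n = 4), the tightest day 1 group relative to its mean among the members at 3.66%. The long intergenic RNAs *Gm26660*, *Gm17745*, *Gm40841* and *Gm33609* had sham hearts between 0.574 and 4.92 CPM and day 1 hearts between 0.115 and 1.44 CPM. In *Gm26660* the separation was wide for so low a gene, with sham hearts at 0.991, 0.986, 0.970 and 1.05 CPM and day 1 hearts at 0.229, 0.179, 0.458 and 0.410 CPM.

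The deepest dip belonged to a processed pseudogene, *Gm5831* (chr9:42964872-42966080, plus strand). It had 99, 102, 45 and 90 counts in the sham libraries, 0 in every day 1 library and 3, 71, 41 and 61 in the day 7 libraries. In CPM these were 5.16, 4.19, 2.18 and 4.30 in sham and 0.0925, 2.74, 1.51 and 2.07 on day 7. Against the 3 counts that a reading of 0 allows, at most 0.115 CPM in a day 1 library, the sham mean was at least 34.5-fold higher and the day 7 mean at least 14.0-fold higher. Its single exon of 1209 bases lies wholly within exon sequence of *Arhgef12* on the opposite strand, a gene with 287, 277 and 291 CPM in the same groups, and all of its 75-base stretches occur in another annotated gene. The value of *Gm5831* is therefore uncertain, and with 3 counts in day 7 replicate 1 a near-empty library also occurred outside day 1. *Ifi203-ps*, a pseudogene of the interferon-activated gene family (chr1:173776529-173798270, minus strand), read 6.42, 4.97, 7.28 and 7.89 CPM in sham, 3.14, 2.83, 4.32 and 2.62 CPM on day 1 and 8.94, 16.3, 13.8 and 14.6 CPM on day 7. Of its 75-base stretches 11.6% occur elsewhere, mostly in *Ifi203*, so part of this reading may be shared. *Gm6018* and *A930017M01Rik*, the other pseudogenes, had sham hearts between 1.20 and 2.15 CPM and day 1 hearts between 0.179 and 0.977 CPM.

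How far the members had returned by day 7 was asked by comparing day 7 with sham, which the rule did not set against each other although values of both groups entered it. Of all genes tested, 15.3% were called higher on day 7 than in sham and 5.88% lower. Among the members 5 were called higher (14.7%), a share near the background and so no result about the members as a set, and 0 were called lower in edgeR. The counts in this paragraph include members admitted by 1 group alone. *Zfp185*, *Fam180a*, *Gm26660*, *Gm17745* and *Cyp46a1* reached the minimum of 1 CPM only through day 7, and *Cdh16* only through sham. At an unadjusted p under 0.05, 2 members were lower (5.88%, against 30.5% of all genes), and DESeq2 also called 0 lower. The 95% interval of the day 7 to sham ratio lay wholly within a fold of 2 for 19 members (55.9%), against 59.2% of all genes, and 17 members had a log2 fold change above 0 and 17 below. The sham and day 7 hearts did not overlap for 11 members (32.4%), against 53% of all genes. All genes tested had a median of 15.7 CPM and the members 1.54 CPM, and low counts make overlap and a high p more likely. No share at like levels was taken, so the lower shares are no result about the members' return. The median day 7 mean was 99.5% of sham, with a range from 40.6% to 714%.

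**Figure D4:**
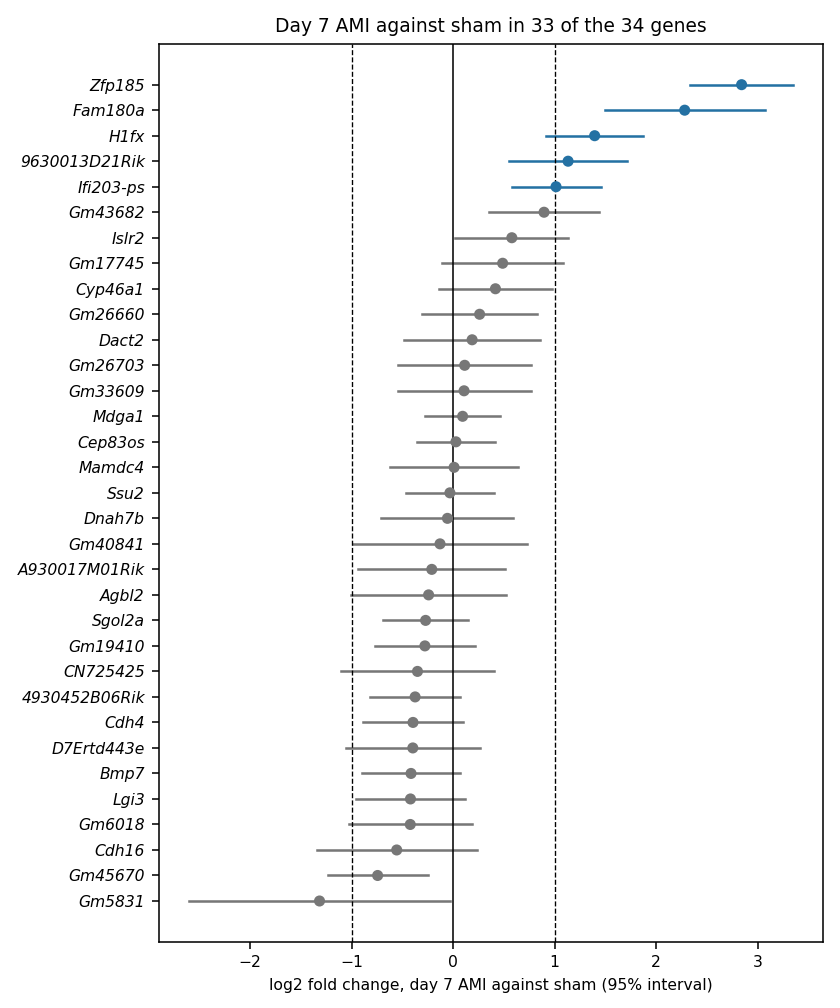
Log2 fold change of day 7 against sham for 33 of the 34 members, with 95% intervals from edgeR and dashed lines at a fold of 2 in each direction. The 5 members called higher are *Zfp185*, *Fam180a*, *H1fx*, *9630013D21Rik* and *Ifi203-ps*, at 2.84, 2.28, 1.39, 1.13 and 1.01, and the intervals of most others include 0.

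The 5 members called higher stood above their sham level on day 7. *Zfp185* and *Fam180a*, with sham means of 0.983 and 0.372 CPM, reached the 1 CPM minimum only through day 7, so the day 7 excess helped to admit them and their test is no support for it. *Zfp185*, an actin-associated LIM-domain protein (chrX:72987339-73031543, plus strand), had 1.10, 0.616, 1.46 and 0.765 CPM in sham, 0.421, 0.358, 0.360 and 0.599 CPM on day 1 and 6.72, 7.19, 7.60 and 6.56 CPM on day 7. All day 7 hearts lay above all sham hearts, and the log2 fold change was 2.84 (SE 0.236, edgeR adjusted p = 3.29e-07). For this gene the drop on day 1 was small in CPM beside the rise that followed. *Fam180a*, a little-characterised gene (chr6:35312668-35326141, minus strand), had 0.313, 0.452, 0.388 and 0.335 CPM in sham, 0.115, 0.209, 0.0327 and 0.0631 CPM on day 1 and 1.20, 1.78, 2.73 and 1.67 CPM on day 7. The sham libraries held 6 to 11 counts of it and the day 1 libraries 1 to 7, so its dip rests on few reads, whereas its day 7 excess (log2 fold change 2.28, SE 0.368, edgeR adjusted p = 0.000103) rests on 39 to 74 counts. *H1fx*, a replication-independent linker histone, went from 1.67, 1.15, 1.79 and 2.25 CPM in sham through 0.956, 0.806, 0.752 and 0.883 CPM to 3.70, 5.56, 5.20 and 3.57 CPM (day 7 against sham 1.39, SE 0.223, edgeR adjusted p = 9.57e-05). Opposite-strand *Gm5577* overlaps 17.5% of its exon bases, and reads of both cannot be told apart where strand was not counted.

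The non-coding *9630013D21Rik* had 1.10, 0.821, 1.31 and 1.67 CPM in sham, 0.765, 0.328, 0.294 and 0.410 CPM on day 1 and 2.68, 2.70, 2.69 and 2.65 CPM on day 7, with the day 7 hearts very close together (SD 0.0222 CPM). Its log2 fold change was 1.13 (SE 0.273, edgeR adjusted p = 0.00247), and it fell under the fold limit without sham replicate 2 (0.97). Opposite-strand *Gm12811* overlaps 11.3% of the exon bases of *9630013D21Rik*, and reads of both cannot be told apart there where strand was not counted. *Ifi203-ps* lay at the limit, with 1.01 (SE 0.205, edgeR adjusted p = 0.000662). It lost the call by DESeq2 and by RLE scaling (0.99 in both) and without sham replicate 1 (1.00), sham replicate 2 (0.89), day 7 replicate 2 (0.91) or day 7 replicate 4 (0.97). Without sham replicate 2 the count of members called higher was thus 3.

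Below the fold limit but past the FDR were *Gm43682*, of unclear coding status (0.90, SE 0.252, edgeR adjusted p = 0.00700), and *Gm45670* in the other direction (-0.74, SE 0.230, edgeR adjusted p = 0.0122). The latter was -0.35 by library size alone (edgeR adjusted p = 0.201) and -0.21 in limma on log2(TPM + 1) (adjusted p = 0.431), past the FDR in neither. *Gm5831* had -1.32 (SE 0.586, edgeR adjusted p = 0.0735), and it was called lower with no filter on low counts or without day 7 replicate 2 (-1.70). *Islr2*, a transmembrane protein of growing axons, had 0.58 (SE 0.259, edgeR adjusted p = 0.0681). Among the members with more counts, estimates near 0 were *Mamdc4* at 0.01 (95% interval -0.62 to 0.64), *Cep83os* at 0.03 (-0.36 to 0.42) and *Mdga1* at 0.09 (-0.28 to 0.47). These intervals leave room for a difference in either direction, so a full return is not shown. *Sgol2a* at -0.27 (-0.69 to 0.15) and *Bmp7* at -0.41 (-0.90 to 0.07) lay below 0 without passing the test.

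The members were set beside the genes whose exons or introns they overlap, since counting by strand was not stated. No exon base was shared for 25 members, and over 10% for 4. *Sgol2a* shares 35.0% of its exon bases with *Kctd18* on the opposite strand, which read 8.44, 8.20 and 11.1 CPM in sham, day 1 and day 7 (day 1 against sham -0.04, edgeR adjusted p = 0.800). *Mamdc4* shares 9.03% with *Phpt1* on its own strand, a histidine phosphatase gene with 32.3, 30.0 and 13.3 CPM, which fell from day 1 to day 7 (-1.17, edgeR adjusted p = 3.51e-05) while *Mamdc4* came back. *Dhx32*, in which *Gm45670* lies with no shared exon base, went the other way with 50.5, 60.3 and 38.4 CPM. The day 1 means of these 3 neighbours thus lay near or above their sham means.

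Other neighbours were lower on day 1 than in sham. *Islr*, a secreted immunoglobulin and leucine-rich repeat protein of mesenchymal cells next to *Islr2*, read 30.8, 17.4 and 89.2 CPM (day 1 against sham -0.82, edgeR adjusted p = 0.00113, day 7 against day 1 2.36, edgeR adjusted p = 1.53e-07). *Islr2* shares 3.06% of its exon bases with *Islr*. Around *Gm26703*, which has no exon base in common with it, the opposite-strand matricellular gene *Sparcl1* had 258, 173 and 436 CPM (-0.58, edgeR adjusted p = 0.000606, and 1.33, edgeR adjusted p = 5.36e-07). *Sybu*, opposite *A930017M01Rik*, had 10.9, 7.24 and 8.93 CPM (-0.59, edgeR adjusted p = 0.0190, and 0.30, edgeR adjusted p = 0.190). Whether reads of the neighbour entered the member's count was not tested.

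**Figure D5:**
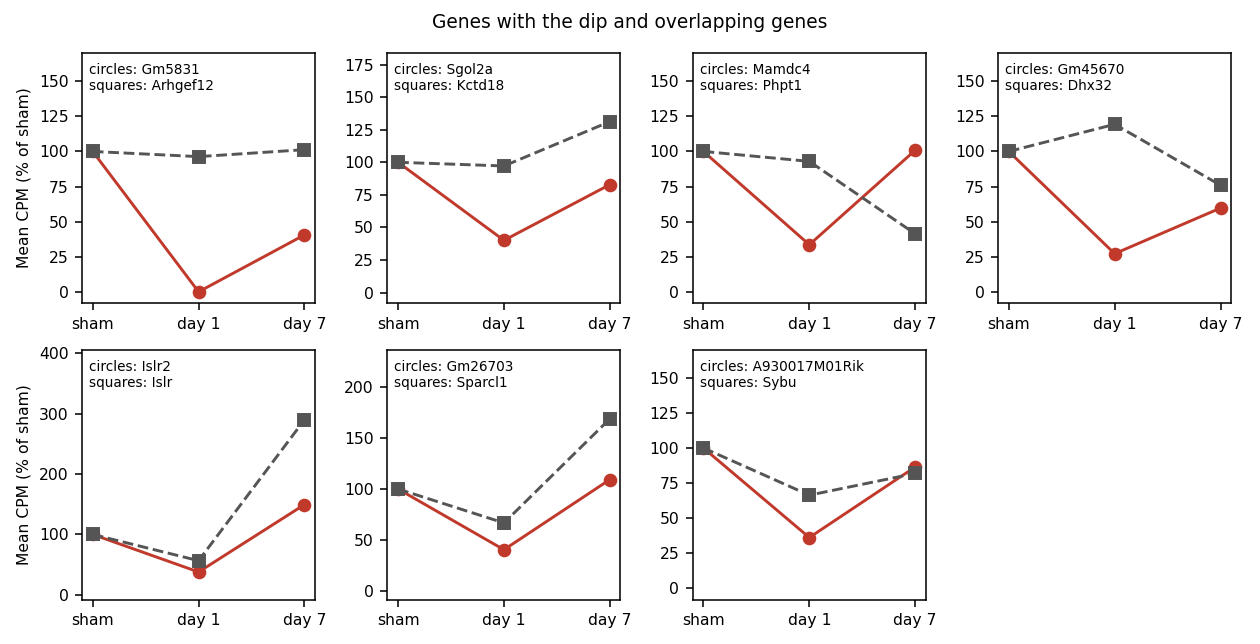
Mean CPM on day 1 and day 7 as a percentage of the sham mean, on linear axes with their own range in each panel, for 7 members (circles) and the gene each lies in or next to (squares). *Arhgef12*, *Kctd18*, *Phpt1* and *Dhx32* stood near or above their sham level on day 1, whereas *Islr*, *Sparcl1* and *Sybu* stood below it.

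Promoter windows of 300 bases, from 250 before to 50 after the annotated start, were looked up in RefSeq (GRCm38.p6) to see what the members' control regions share. A window was found for 20 of the 34 members, and for 11463 of the genes tested. The motif TGANTCA, with any letter at N, is a loose form of the site of AP-1, a Fos and Jun dimer of early injury responses. It was present in 5 of the 20 (25.0%), against 6.46% of all genes with a window. The motif reads the same on both strands. Its holders were *Agbl2*, *Fam180a*, *Islr2*, *Gm17745* and *Gm33609*. *Agbl2* and *Islr2* hold it only as TGAATCA, whereas the AP-1 consensus has C or G at N. No share was taken for C or G alone, so the excess is not shown for the consensus site. The windows of the 3 coding holders are shown because they differ in where the motif sits, at -113 in *Agbl2* (chr2:90782477-90782776, plus strand), at -48 in *Fam180a* (chr6:35326092-35326391, minus strand) and at -6 in *Islr2* (chr9:58204270-58204569, minus strand), counted from the start site to the motif's leftmost base. The 7 letters of the motif are in capitals.
Agbl2: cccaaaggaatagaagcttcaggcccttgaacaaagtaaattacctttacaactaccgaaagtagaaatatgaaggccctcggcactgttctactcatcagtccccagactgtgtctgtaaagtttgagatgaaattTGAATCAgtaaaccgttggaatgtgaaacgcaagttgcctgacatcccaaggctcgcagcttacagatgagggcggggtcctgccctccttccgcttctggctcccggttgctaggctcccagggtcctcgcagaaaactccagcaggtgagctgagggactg
Fam180a: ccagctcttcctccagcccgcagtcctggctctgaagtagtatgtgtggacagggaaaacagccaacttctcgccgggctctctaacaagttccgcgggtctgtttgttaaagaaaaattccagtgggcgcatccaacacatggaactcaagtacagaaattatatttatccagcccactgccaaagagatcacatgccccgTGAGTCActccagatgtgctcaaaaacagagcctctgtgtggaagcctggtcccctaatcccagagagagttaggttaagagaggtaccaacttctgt
Islr2: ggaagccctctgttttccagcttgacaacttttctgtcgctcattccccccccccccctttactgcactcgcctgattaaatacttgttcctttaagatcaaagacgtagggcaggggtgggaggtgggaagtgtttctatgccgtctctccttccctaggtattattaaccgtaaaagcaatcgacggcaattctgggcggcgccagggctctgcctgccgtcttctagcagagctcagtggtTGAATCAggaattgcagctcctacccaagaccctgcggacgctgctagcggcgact

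Other motifs were searched on both strands as well. The GC box GGGCGG was in 60.0% of the members with a window against 66.2% of all genes with one, the TEAD motif GGAATG in 15% against 14.8%, the TATA box TATAAA in 10% against 9.37%, the E-box CACGTG in 5% against 11.4% and the MEF2 element in 5% against 2.37%. The GATA motif AGATAA, the CArG box, the cyclic AMP element TGACGTCA and the D-box (TTACGTAA or TTATGTAA) were in none of the 20 members, against 8.07%, 1.55%, 3.38% and 0.837% of all. With 20 members, 1 gene is 5%. These are counts of letters in a window and no evidence of binding, and *Gm33609* and *Gm17745* have RefSeq starts away from the start of the deposited annotation.

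The dip was also looked at in other units. All 34 members had their lowest mean on day 1 by RLE scaling, by library size alone and in the deposited TPM values. The rule had chosen them for a low day 1 mean in the same libraries, so this count was nearly fixed in advance and is no support for the dip. The size of the dip changed more. Library size alone also moved the median of all genes on day 1 by 0.26 on the log2 scale relative to sham, and the TPM scale with 1 added by 0.23, and the part of this shift in the members' values was not tested. In TPM, 20 members had a day 1 mean at most 50% of both other means, 19 kept the day 1 hearts apart and 13 did both. Read beside that shift, *Mdga1* and *Sgol2a* fell short of the limit in TPM, with 62.7% and 50.6%, whereas *Mamdc4* (32.3%) and *Gm45670* (38.95%) did not.

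Lists of cell type markers and pathways held no member, over 22 lists and 337 entries of which 304 were tested, so the values below stand beside the dip and their part in it was not tested. Fibroblast markers, 14 genes, summed to 2453 to 2981 CPM in sham, 1671 to 2243 CPM on day 1 and 2592 to 3052 CPM on day 7. The sum is dominated by *Gsn*, an actin-severing protein (means of 1404, 964 and 674 CPM), and *Dcn*, a collagen-binding proteoglycan (522, 318 and 669 CPM), and the day 1 to sham log2 fold change was above 0 for 6 of the 14 genes, with a median of -0.21. Endothelial markers summed to 1840 to 2441, 1517 to 1640 and 1996 to 2235 CPM over 13 genes, of which 3 were above 0, with a median of -0.30. Mural and smooth muscle markers summed to 1359 to 1493, 1025 to 1151 and 1495 to 2069 CPM over 12 genes. There the lower day 1 sum came with *Rgs5* (512, 286 and 622 CPM) and the potassium channel subunit *Abcc9* (482, 258 and 227 CPM), while 8 of the 12 genes were above 0 and the median was 0.18. The median over all genes tested was -0.01. In 5 of the 22 lists a gene was called lower on day 1 than in sham, as 2.98% of all genes were. Those lists were erythroid (4 of 7), adipocyte (2 of 9), epicardial and mesothelial (2 of 15), G protein signalling regulators (2 of 16) and axon guidance (1 of 38), the last at the background share. In limma on log2(TPM + 1) each of these 5 lists held 0 genes called lower. Erythroid genes varied strongly within sham, from 492 to 4489 CPM, and neutrophil genes stood at 2.77 to 58.1 CPM in sham and 49.0 to 177 CPM on day 1, with 4 of 7 called higher, against 7.79% of all genes.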

How the data were processed

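Whole-heart RNA of 12 mice was sequenced by the authors as paired reads, trimmed with Cutadapt and aligned with STAR 2.4.0j to GRCm38. The deposited files hold 2 units per gene. Raw read counts were deposited with the counting tool and its strand setting not given in the sources used here, and TPM (transcripts per 1000000) came from the authors' RSEM run. Deposited counts were fitted in edgeR 4.0.16 (R 4.3.3) with TMM scaling, a filter on low counts by group, the quasi-likelihood test over all 3 groups and Benjamini-Hochberg adjustment over all 15306 genes. A call needs a fold change of at least 2 and FDR under 0.05. Each p-value sets a difference between groups against the spread between hearts, and the estimate of that spread also draws on the other genes. The genes named are the members (1 is not reported here), the best expressed members in full, and their annotated neighbours. Members and lists were chosen with earlier results of these data known. Alternatives were DESeq2 1.42.0, other scalings, no filter, limma 3.58.1 on log2(TPM + 1) and log2(TPM + 0.1), other limits of the rule, and leaving out each heart. The edgeR, DESeq2 and limma calls of day 7 against sham and the rule for the dip were tried on simulated counts. For limma the simulated counts were scaled per 1000000 without transcript length. The other steps were not tried in this way. Positions and exons came from GENCODE on GRCm38 and promoters from RefSeq. Files of all 12 hearts were used, with 0 columns of samples left aside.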

Additional observations from a re-analysis of the deposited data

Results flagged for a closer look

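Each member was looked at in each group of 4 hearts for 1 heart far from the other hearts of its group, by Dixon's test of the gap to its nearest neighbour over the whole range. This flagged 4 of 101 groups, and chance alone flags about 5%. *Dact2* stood at 0.914 CPM in day 1 replicate 4, with the nearest day 1 heart at 0.507 CPM. *Dnah7b* stood at 0.599 CPM in the same heart, below a nearest value of 0.835 CPM, so this heart was high for one gene and low for the other. *Ssu2* had 2.06 CPM in sham replicate 4 against 3.33 CPM in the nearest sham heart. *Cdh16* had 1.22 CPM in day 7 replicate 3 against 0.709 CPM in the nearest day 7 heart.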

How the results depend on the processing

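The set was 34 genes as described, 31 by RLE scaling (31 of them the same genes), 23 by library size alone (20 the same) and 29 with no filter. Applied in TPM to all genes tested, with the level minimum taken as 1 TPM, the rule gave 13 genes, of which 9 were members. The set was 130 with a fold of 1.5, 4 with a fold of 3, 8 with a mean of at least 5 CPM, and 29 to 48 with a heart left out (lowest without day 7 replicate 3, highest without sham replicate 2). All 12 of the latter fits kept 18 members. Members called higher on day 7 than in sham numbered 4 by DESeq2 and RLE, 6 by library size alone, limma on log2(TPM + 0.1) and FDR alone, 5 in the other fits, and 3 to 6 with a heart left out (3 without sham replicate 2). Members called lower numbered 1 with no filter (*Gm5831*), 1 by FDR alone (*Gm45670*), 0 to 1 with a heart left out (1 without day 7 replicate 2) and 0 otherwise. *Zfp185*, *Fam180a* and *H1fx* were called in all 21 alternatives. For *Zfp185* and *Fam180a* this is no support, since their day 7 level helped to admit them. Library size alone and limma on log2(TPM + 1) or log2(TPM + 0.1) moved the median of all genes on day 7 against sham by 0.43, 0.44 and 0.57, and the share of calls that were higher from 72.3% to 92.0%, 96.0% and 95.7%. With the 2 TPM scales in that order, the log2 fold change of day 7 against sham turned above 0 for *D7Ertd443e* (0.21, 0.41), *Gm6018* (0.071, 0.091), *CN725425* (0.093, 0.18), *Agbl2* (0.12, 0.25), *4930452B06Rik* (0.10, 0.16), *Gm40841* (0.33, 0.60), *Sgol2a* (0.25, 0.32), *Lgi3* (0.098, 0.14) and *Bmp7* (0.065, 0.14), all less than or about the shift of all genes. By library size alone it did so for *CN725425* (0.048), *Agbl2* (0.16), *4930452B06Rik* (0.022), *Gm40841* (0.26) and *Sgol2a* (0.13). *Mamdc4*, near 0, turned below 0 by DESeq2 (-0.011), RLE (-0.012), in a fit of the 2 groups alone (-0.0027) and with the replicate block (-0.00043). With a heart left out, signs turned for values near 0, over ranges of -0.15 to 0.16 in *Mamdc4*, -0.51 to 0.018 in *Agbl2*, -0.30 to 0.28 in *Gm40841*, -0.11 to 0.43 in *Gm33609*, -0.098 to 0.17 in *Cep83os* and -0.028 to 0.20 in *Mdga1*. The cause of these turns was not tested.

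Replicate numbers in the labels did not pair the hearts. Same-numbered hearts deviated together with correlations of -0.24 to 0.23, and 2 of 12 libraries matched best to their own number. With the replicate block 5 members were called higher on day 7 and 0 lower. Depth limits the weakest members, whose day 1 libraries held few counts each.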

Other observations

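Outside the members, the list of 15 epicardial and mesothelial genes held genes that dipped and genes that rose on day 1. *Upk3b*, a uroplakin of mesothelium, read 6.31, 9.32, 4.32 and 6.41 CPM in sham, 4.44, 2.12, 2.00 and 0.883 CPM on day 1 and 8.07, 9.47, 7.34 and 7.24 CPM on day 7. The day 1 hearts overlapped sham only through replicate 1, at 4.44 CPM. On day 1 it fell by 1.502 on the log2 scale (SE 0.350, edgeR adjusted p = 0.00374) and rose from day 1 to day 7 (1.78, edgeR adjusted p = 0.000830). *Muc16*, a membrane mucin of mesothelium, likewise went from 2.76, 2.18, 0.776 and 0.861 CPM through 0.879, 0.209, 0.360 and 0.126 CPM to 1.73, 5.52, 2.29 and 2.35 CPM (-2.10, edgeR adjusted p = 0.0114, then 2.95, edgeR adjusted p = 0.000825). In limma on log2(TPM + 1) 0 genes of the list were called lower on day 1. In the same list 5 of 15 genes were called higher on day 1, against 7.79% of all genes, and 2 lower, against 2.98%. The former included *Aldh1a2*, the retinoic acid-making enzyme (2.80, edgeR adjusted p = 1.16e-05), *Krt18* (2.24, edgeR adjusted p = 4.99e-05) and *Krt8* (2.39, edgeR adjusted p = 0.00294).

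Shallower dips of well expressed genes stood next to the rule. *Rgs5*, a regulator of G protein signalling in pericytes, went from 427 to 580 CPM in sham to 254 to 311 CPM on day 1 and 515 to 749 CPM on day 7, with no overlap of day 1 with either group (-0.84, SE 0.123, edgeR adjusted p = 0.000161). *Fbln1*, a fibulin of elastic tissue, went from 130 to 215 CPM through 76.4 to 95.3 CPM to 146 to 212 CPM (-0.98, SE 0.163, edgeR adjusted p = 0.000400). Neither reached the fold limit against sham, and both were named after their values were seen.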
